A study of Mus musculus with 6 samples.

Results

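The genes described here are the 3 ID inhibitor genes Id1, Id2 and Id3, the 3 E protein genes Tcf3, Tcf4 and Tcf12, and the 2 ZEB factor genes Zeb1 and Zeb2. They were taken by name, and all 8 were found among the 24421 genes of the deposited table. All 8 also passed the filter on low values, which kept the 11360 genes whose 6 samples averaged 0.5 RPKM or more. RPKM scales reads by gene length and by library depth, so levels of different genes can be set side by side. That holds as far as the length used for each gene matches the transcripts made, which was not tested. The 8 genes were chosen by family with measured pemafibrate against vehicle differences of the same samples known. The pemafibrate against vehicle values are therefore a description, and the adjusted p-values, which come from a fit over all 11360 genes, give no independent support.

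The cells were primary T cells of wild-type mice. CD4 T cells, naive when isolated from spleen, were driven in culture towards the Th17 state, the interleukin 17 producing type of helper T cell. The pemafibrate group received 10 nM pemafibrate, a selective PPARalpha modulator, up to day 2, and the control group received vehicle; both then had 2 days in IMDM with 10% fetal bovine serum. There were 3 samples per group, called vehicle 3, 4 and 7 and pemafibrate 3, 7 and 8 after the numbers in their titles. Nothing in the labels says that they came from separate animals or cultures, so each p-value reflects sample to sample spread that could be purely technical.

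E proteins are basic helix-loop-helix transcription factors that bind the short DNA motif called an E-box as pairs and switch on T lineage genes. ID proteins have the helix-loop-helix but no basic region: they pair with E proteins and keep them off DNA. Id2 and Id3 are known for setting how strongly E proteins act in effector and regulatory T cells. ZEB1 and ZEB2 are zinc finger factors that bind a subset of E-boxes, mostly as repressors, and ZEB2 is known from terminally differentiated T cells.

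The libraries held 14935351 to 18322467 reads by the depth that the RPKM values imply, and each of the 8 genes had at least 124 reads in each library. The first principal component, with 26.4% of the variance, separated the groups, and the second, with 24.9%, did not follow treatment. The 8 T cell markers on the list were all measured above the filter, with sums of 1835 to 1919 RPKM in vehicle and 1830 to 1900 RPKM in pemafibrate (Cd4 at 140.3 and 154 RPKM). The 6 Th17 markers summed to 1803 to 2003 RPKM in vehicle and 1350 to 1643 RPKM in pemafibrate, without overlap. Limma called Il23r, which fell from 5.94 to 3.83 RPKM (adjusted p = 0.0362), and Ccr6, which rose from 22.98 to 33.3 RPKM against the direction of the sum (0.0104). The part of these differences in the results below was not tested. B cell markers summed to 5.39 to 6.58 RPKM and those of macrophages and dendritic cells to 8.17 to 13.9 RPKM over both groups, mostly Lyz2 (6.197 and 6.245 RPKM) and Cd68 (3.74 and 3.83 RPKM), with Csf1r and Adgre1 under 0.2 RPKM on average. In bulk RNA, fewer cells of a type and less RNA per cell cannot be told apart.

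Pemafibrate-treated cells had less Id2 RNA, and Id2 was the 1 gene of the 8 that limma called at an adjusted p under 0.05. Of all 11360 tested genes limma called 0.352%, with 0.22% lower and 0.132% higher. Voom on recovered reads also called Id2 alone, where it called 1.23% of 11853 genes (0.785% lower, 0.447% higher). In the authors' deposited table Id2 and Id1, 2 of the 8, had an adjusted p under 0.05, as did 1.19% of its genes. That share is over all 24421 genes, 7599 of them at 0 in every sample, while the limma and voom shares are over filtered genes. Id1, Id3 and the E protein and ZEB genes did not pass with limma or voom. The median log2 difference of the 8 genes was -0.07, against 0.0052 over all tested genes. The groups did not overlap for 4 of the 8 genes (3 lower, 1 higher), where 15% of all tested genes had groups apart (7.31% lower, 7.67% higher). The choice of genes used this contrast, so nothing is read from these counts.

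Id2, by level the main ID gene in these cells, measured 128, 126 and 122 RPKM in vehicle 3, 4 and 7 and 102, 102 and 98.9 RPKM in pemafibrate 3, 7 and 8. Every pemafibrate sample lay below every vehicle sample, and the gap between the groups was wider than the range within either. The reads behind these levels were 2953, 2749 and 2693 in vehicle and 2370, 1931 and 2221 in pemafibrate. The mean fell by 19.9%, from 126 ± 2.995 to 100.7 ± 1.62 RPKM (SD, n = 3 each). The log2 difference was -0.32 ± 0.03 (SE), with a limma adjusted p of 0.0216, the 11th smallest p of all tested genes. In the authors' deposited table the Id2 log2 fold change was -0.32 and the adjusted p 5.97e-06. The adjusted p from limma was 0.123 without vehicle 3, 0.0995 without vehicle 4, 0.132 without pemafibrate 7 and 0.0683 without pemafibrate 8, with log2 differences from -0.34 to -0.30 over all 6 omissions. It was 0.0552 with no filter on low values and 0.00141 with voom on reads recovered from the RPKM values.

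Natural killer cells carry much Id2, so their markers are given beside it. The 4 natural killer cell markers summed to 3.94 to 4.18 RPKM in vehicle and 2.68 to 3.04 RPKM in pemafibrate, without overlap. Nearly all of it was Klre1, a lectin-like receptor gene, at 3.90 RPKM in vehicle and 2.703 RPKM in pemafibrate (limma adjusted p = 0.0636). The defining genes Ncr1 and Klrb1c averaged 0.0258 and 0.00732 RPKM in vehicle and were listed at 0 in pemafibrate, and Eomes averaged 0.112 RPKM in vehicle and 0.141 RPKM in pemafibrate. The part of natural killer cells in the Id2 difference was not tested.

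Id1, the inhibitor known as a direct BMP target in many cell types, measured 8.04, 8.205 and 7.675 RPKM in vehicle 3, 4 and 7 and 12.8, 12.2 and 9.15 RPKM in pemafibrate 3, 7 and 8. All pemafibrate samples lay above the vehicle samples, but pemafibrate 8 stood nearer to vehicle than to the other two. The means were 7.98 ± 0.272 and 11.4 ± 1.95 RPKM (SD, n = 3 each), with 124 to 136 reads per vehicle library and 151 to 219 per pemafibrate library. The log2 difference of 0.47 ± 0.11 (SE) missed the threshold with limma (adjusted p = 0.189) and with voom (0.131). In the authors' deposited table Id1 had a log2 fold change of 0.51 and an adjusted p of 0.0175. Without pemafibrate 8 the log2 difference was 0.62 and the limma adjusted p 0.0330.

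Id3, an inhibitor induced by antigen receptor signals through EGR factors, measured 13.3, 10.8 and 9.40 RPKM in vehicle 3, 4 and 7 and 11.6, 11.45 and 12.65 RPKM in pemafibrate 3, 7 and 8. The pemafibrate values lay within the vehicle range, so the groups overlapped fully. The vehicle samples had a coefficient of variation of 17.6%, the widest of the 8 genes in that group, against 2.38% for Id2. The log2 difference was 0.10 ± 0.11 (SE, limma adjusted p = 0.847). It was -0.0091 without vehicle 7. Id4, the fourth ID gene, was listed at 0 in all 6 samples.

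**Figure D1:**
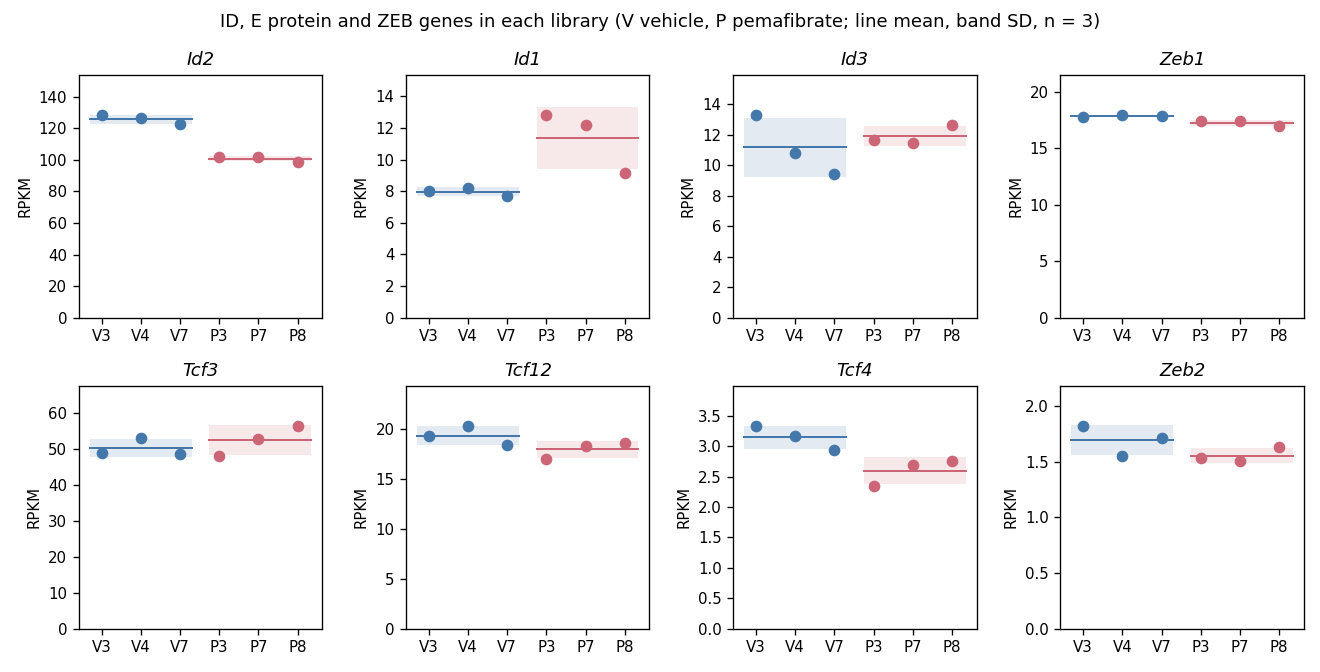
RPKM of each of the 8 genes in each library, on linear axes that start at 0. Points are libraries, lines are group means and bands are ± 1 SD (n = 3). The 3 pemafibrate points of Id2 lie at 98.9 to 102 RPKM, below all vehicle points at 122 to 128 RPKM, while those of Id3 and Tcf3 overlap with vehicle.

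Id2 made up most of the ID transcript in both groups, with a smaller share after pemafibrate. It held 85.8%, 86.9% and 87.8% of the summed RPKM of Id1, Id2 and Id3 in vehicle 3, 4 and 7. The same share was 80.6%, 81.1% and 81.9% in pemafibrate 3, 7 and 8. The groups were apart by more than the spread within either. Id1 held 5.51% ± 0.132 in vehicle and 9.15% ± 1.37 in pemafibrate (SD, n = 3 each). The ratio of Id2 to Id1 was 15.9, 15.4 and 15.95 in vehicle and 7.95, 8.34 and 10.8 in pemafibrate, lower in every treated sample. These shares and ratios are read from the same values as above and were not tested.

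Id1, Id2 and Id3 transcripts share only short identical runs. In GENCODE M21 the longest identical run was 11 bases between Id1 and Id2 transcripts, 12 between Id1 and Id3 and 19 between Id2 and Id3. Stretches of 50 bases of Id2 were shared with the transcript of 1 other gene, the processed pseudogene Gm6175, which was not analysed here. No annotated gene overlapped Id1, Id2 or Id3. The RPKM values imply counted lengths of 1272 bases for Id2, 934 for Id1 and 953 for Id3.

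The promoter of Id2, the gene with the called difference, is shown beside that of Id3, the inhibitor whose groups overlapped, and that of Tcf3, the most abundant E protein gene. E proteins and ZEB factors both read E-boxes, so the capitals mark each E-box (CANNTG, read on both strands) in the 250 bases before the RefSeq start on GRCm38.p6, written 5′ to 3′ on the gene's strand. The windows are chr12:25096093-25096342 on the minus strand for Id2 and chr4:136143572-136143821 on the plus strand for Id3. Both lie directly before the outer end of the gene. For Tcf3 the window is chr10:80433636-80433885 on the minus strand. It lies inside the gene, which reaches to 80433976, so the start used for Tcf3 is an internal one.
Id2: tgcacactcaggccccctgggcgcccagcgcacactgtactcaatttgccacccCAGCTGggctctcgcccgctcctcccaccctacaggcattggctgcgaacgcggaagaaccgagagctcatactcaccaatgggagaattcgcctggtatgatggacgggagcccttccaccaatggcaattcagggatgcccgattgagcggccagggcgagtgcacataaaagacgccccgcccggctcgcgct
Id3: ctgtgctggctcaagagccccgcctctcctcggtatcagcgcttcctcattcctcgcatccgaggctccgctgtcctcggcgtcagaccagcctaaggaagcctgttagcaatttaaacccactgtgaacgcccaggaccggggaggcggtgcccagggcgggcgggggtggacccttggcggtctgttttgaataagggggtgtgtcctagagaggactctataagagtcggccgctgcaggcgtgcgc
Tcf3: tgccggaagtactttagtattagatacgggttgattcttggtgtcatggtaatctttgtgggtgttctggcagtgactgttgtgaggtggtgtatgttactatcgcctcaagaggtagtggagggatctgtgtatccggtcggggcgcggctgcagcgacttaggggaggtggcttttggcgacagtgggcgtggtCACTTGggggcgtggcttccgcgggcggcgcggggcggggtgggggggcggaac

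The Id2 window held 1 E-box, of the form CAGCTG, that begins 196 bases before the start. The Tcf3 window held 1, CACTTG, at 54 bases before its internal start, and the Id3 window had no letters of this kind. Of 32851 promoter windows in the table, 66.2% held at least 1 E-box before the start and 13.0% held CAGCTG, so the match is common. CAGGTG, the form that ZEB factors prefer, with its reverse CACCTG, was in 17.2% of windows and in none of the 3 shown. The GC-rich motif GGCGCC, known from BMP-responsive elements of ID genes, was found once in the Id2 window, 231 bases before the start, and in 9.59% of all windows. A match describes letters and not a bound site. The table held promoters of 5 of the 8 genes. Of the windows not shown, those of Tcf12, which was not called, also held CAGCTG, 240 bases before a RefSeq start. The Zeb2 windows held no E-box.

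The summed level of the 3 E protein genes overlapped between the groups. Together they measured 71.3, 76.5 and 69.9 RPKM in vehicle 3, 4 and 7 and 67.3, 73.7 and 77.7 RPKM in pemafibrate 3, 7 and 8, with full overlap. Limma called none of the 3 (1 at an unadjusted p under 0.05, Tcf4, and none by voom).

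Tcf3, which encodes the E2A proteins E12 and E47, measured 48.7, 53.0 and 48.55 RPKM in vehicle and 47.9, 52.7 and 56.3 RPKM in pemafibrate. Pemafibrate 3 was the lowest and pemafibrate 8 the highest of all 6 samples. The log2 difference was 0.06 ± 0.06 (SE, limma adjusted p = 0.841). It stood at 0.0066 without pemafibrate 8 and at 0.12 without pemafibrate 3.

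Tcf12, which encodes HEB, the main partner of E2A in thymocytes, measured 19.3, 20.3 and 18.4 RPKM in vehicle and 17.0, 18.3 and 18.6 RPKM in pemafibrate. Only pemafibrate 8 reached into the vehicle range. The log2 difference was -0.10 ± 0.05 (SE, limma adjusted p = 0.648).

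Tcf4, which encodes E2-2, the E protein of plasmacytoid dendritic cells, measured 3.33, 3.16 and 2.94 RPKM in vehicle and 2.35, 2.685 and 2.76 RPKM in pemafibrate. The groups did not overlap, but their nearest samples, vehicle 7 and pemafibrate 8, were close. The log2 difference was -0.24 ± 0.09 (SE) with a limma adjusted p of 0.443. In the authors' deposited table its adjusted p was 0.107. Among plasmacytoid dendritic cell markers Siglech averaged 0 and 0.00787 RPKM and Cox6a2 was listed at 0 in all samples. The 6 markers summed to 33.8 to 38.6 RPKM in vehicle and 41.8 to 43.9 RPKM in pemafibrate, nearly all of it Irf8, which T cells also express.

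Within the E protein sum, Tcf3 took a slightly larger share after pemafibrate. Its share was 68.3%, 69.3% and 69.5% in vehicle 3, 4 and 7. In pemafibrate 3, 7 and 8 it was 71.3%, 71.5% and 72.5%, without overlap. Tcf4 made up 4.34% ± 0.289 in vehicle and 3.56% ± 0.0730 in pemafibrate (SD, n = 3 each), and Tcf12 26.6% ± 0.366 and 24.7% ± 0.646. The shares were not tested. They are parts of 1 sum in each sample and come from the same values, in which none of the 3 genes passed by itself.

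**Figure D2:**
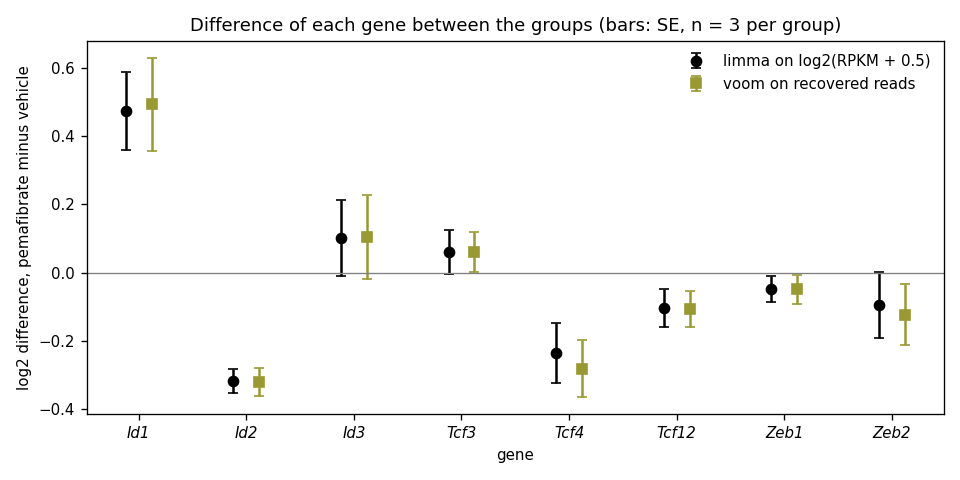
Log2 difference between the groups for each gene, as pemafibrate minus vehicle, with bars of ± 1 SE. Circles are limma on log2(RPKM + 0.5) and squares are voom on recovered reads. Id2 lies at -0.32 by both with a short bar, and Id1 at 0.47 and 0.49 with a long one.

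Inhibitor transcript exceeded E protein transcript in all 6 samples, by a smaller margin after pemafibrate. The summed ID level was 149.6, 145 and 139.5 RPKM in vehicle 3, 4 and 7 and 126, 125 and 121 RPKM in pemafibrate 3, 7 and 8. Dividing it by the E protein sum gave 2.097, 1.90 and 1.995 in vehicle and 1.88, 1.699 and 1.55 in pemafibrate. The 2 groups did not overlap, yet vehicle 4 and pemafibrate 3 were nearly equal. The group means were 1.998 ± 0.0973 and 1.71 ± 0.161 (SD, n = 3 each), a difference of -0.289, and a score over chosen genes was given no test. With geometric means, which give each gene equal weight, the difference was 0.239, the other way. That ratio was 1.64, 1.49 and 1.497 in vehicle and 1.99, 1.76 and 1.58 in pemafibrate, with overlap (1.54 ± 0.0826 and 1.78 ± 0.205, SD, n = 3 each). Per sample, the ratio of Id2 to Tcf3 alone was 2.63, 2.39 and 2.52 in vehicle and 2.12, 1.93 and 1.76 in pemafibrate.

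**Figure D3:**
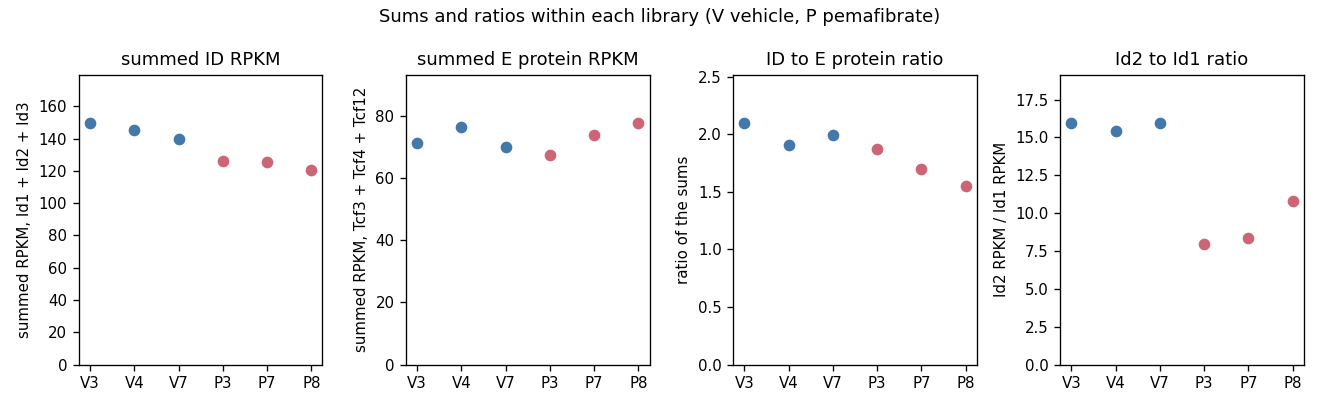
Summed RPKM of the ID genes, summed RPKM of the E protein genes, the ratio of those sums and the ratio of Id2 to Id1 in each library, on axes that start at 0. Points are libraries. The ID sum is 139.5 to 149.6 RPKM in vehicle and 121 to 126 RPKM in pemafibrate, while the E protein sums overlap.

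Neither ZEB gene passed. Zeb1, a repressor that also restrains the interleukin 2 gene, measured 17.8, 17.9 and 17.9 RPKM in vehicle 3, 4 and 7 and 17.45, 17.44 and 16.97 RPKM in pemafibrate 3, 7 and 8. The groups did not overlap, with a coefficient of variation of 0.325% in vehicle and 1.58% in pemafibrate. Its spread within groups on the log2 scale, 0.0161, was smaller than that of nearly all genes: only 0.801% of tested genes had a smaller one, and the median was 0.0804. The log2 difference was -0.05 ± 0.04 (SE, limma adjusted p = 0.795).

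Zeb2 was the lowest of the 8, at 1.82, 1.55 and 1.71 RPKM in vehicle and 1.53, 1.503 and 1.63 RPKM in pemafibrate. The groups overlapped through vehicle 4. With 210 to 308 reads per library over 9355 counted bases, the log2 difference was -0.09 ± 0.10 (SE, limma adjusted p = 0.836). Zeb2os, a gene annotated on the opposite strand within Zeb2, reached at most 0.0845 RPKM, and Gm10125, opposite Zeb1, at most 0.375 RPKM. No source used here gives the strand setting of the counting, and without strand the reads of such pairs cannot be told apart.

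The order of the mean levels was the same in both groups: Id2, Tcf3, Tcf12, Zeb1, Id3, Id1, Tcf4 and Zeb2. In vehicle no neighbours overlapped, from Id2 at 122 to 128 RPKM down to Zeb2 at 1.55 to 1.82 RPKM. In pemafibrate Tcf12 (17.0 to 18.6 RPKM) overlapped with Zeb1 (16.97 to 17.45 RPKM), and Id3 (11.45 to 12.65 RPKM) with Id1 (9.15 to 12.8 RPKM). Within samples, Id1 was above Id3 in pemafibrate 3 and 7 and below it in pemafibrate 8. Tcf12 was below Zeb1 in pemafibrate 3 and above it in pemafibrate 7 and 8. Among all tested genes, 94.2% had a lower mean than Id2, 84.6% than Tcf3 and 42.4% than Id1.

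The genes whose profile was nearest to that of Id2 were Paqr8, Ust, Chd7, Trps1 and Ssh2, by the root mean square distance of centred log2 values over the 6 samples. The distance was 0.0179 for Paqr8, a membrane progestin receptor gene, and 0.0405 for Ssh2, a cofilin phosphatase gene, against a median of 0.181 over all tested genes. Chd7, a chromatin remodeller gene, measured 24.3, 23.7 and 24.7 RPKM in vehicle and 19.6, 19.4 and 18.5 RPKM in pemafibrate. These genes were picked for a profile that includes the group difference of Id2, so no test of that difference is given for them. Of the 8 genes described here, Tcf4 was nearest to Id2, at 0.0838 and rank 124, and Id1 the farthest, at 0.417 and rank 11033.

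Partners that share the E-box were mostly low or without a called difference. A list of 14 genes held Id4 and class II helix-loop-helix genes, which inhibit E proteins or pair with them in other lineages. Of the 14, 1 passed the filter and 6, Id4 among them, were listed at 0 in all samples. The gene that passed, Lyl1, measured 0.498 and 0.649 RPKM (limma adjusted p = 0.799). Of 20 tested E-box factors outside the E protein class, limma called none (3 at an unadjusted p under 0.05), and voom called 1 as lower. That was Mxd1, a MAX partner that opposes MYC, at 40.8, 42.7 and 38.2 RPKM in vehicle and 31.1, 33.8 and 34.9 RPKM in pemafibrate. The groups were apart, with a log2 difference of -0.28 ± 0.06 (SE, limma adjusted p = 0.120, voom 0.0175). Myc measured 149.6 ± 10.1 and 132 ± 6.83 RPKM (SD, n = 3 each, limma adjusted p = 0.374), and Arntl, the clock gene for BMAL1, 14.8 and 13.1 RPKM (limma adjusted p = 0.501). The median log2 difference of the 20 genes was -0.03.

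Cofactors and turnover genes of E and ID proteins had no call by limma or voom among 9 tested, none of them at an unadjusted p under 0.05. Ldb1, the LIM adaptor that bridges E proteins in complexes, measured 101 and 95.1 RPKM (limma adjusted p = 0.681). Lmo4 measured 8.66 and 7.69 RPKM and Fzr1 60.9 and 57.3 RPKM. Usp1, the deubiquitinase that stabilises ID proteins, measured 63.6 and 61.3 RPKM (limma adjusted p = 0.833). The 7 tested ZEB partner genes had no call either, none at an unadjusted p under 0.05 and none by voom: the corepressor gene Rcor1 measured 22.4 and 21.1 RPKM, Kdm1a 34.96 and 36.4 RPKM and Hdac2 60.1 and 58.6 RPKM. The precursor genes of the miR-200 family, which represses ZEB factors in epithelia, were listed at 0 throughout. The libraries were made with a kit for mRNA, so absence of these RNAs cannot be read from those values.

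The lists of genes upstream of the ID genes cover a BMP and an antigen receptor route only, and other inputs were not surveyed. Of 10 tested BMP and SMAD genes limma and voom called none (1 at an unadjusted p under 0.05), with a median log2 difference of -0.04. Smad5, a BMP signal transducer, measured 5.72 ± 0.143 and 5.17 ± 0.104 RPKM (SD, n = 3 each, limma adjusted p = 0.516). Acvrl1, a type I receptor for BMP9, measured 3.24 and 4.17 RPKM with overlap (0.565), and Acvr2a 4.86 and 5.30 RPKM (0.706).

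Of 8 tested EGR and NFAT genes limma called none (2 at an unadjusted p under 0.05) and voom called 1 higher and 1 lower. Egr1, an immediate early factor that acts on the Id3 gene, measured 20.6, 21.5 and 21.6 RPKM in vehicle and 16.0, 17.4 and 17.4 RPKM in pemafibrate. Its groups were apart, with a log2 difference of -0.32 ± 0.05 (SE, limma adjusted p = 0.0573, voom 0.00853). Egr3, of the same family, measured 4.63, 5.36 and 4.56 RPKM in vehicle and 6.64, 6.02 and 6.53 RPKM in pemafibrate. It lay the other way, at 0.37 ± 0.08 (SE, limma adjusted p = 0.131, voom 0.0271). Egr2 measured 10.9 and 10.2 RPKM (limma adjusted p = 0.657).

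Genes tied to E protein activity in T cells held the 1 limma call among the 8 related lists. The list was drawn up with earlier results known, some of its genes among them, so its counts are not independent evidence of a direction. Of 19 listed genes 15 were tested, 12 had a log2 difference below 0 and 3 above, and the median was -0.09. Limma called 1, as lower, with 11 at an unadjusted p under 0.05 (9.67% of all tested genes were), and voom called 2 lower and 1 higher.

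Cxcr4, the CXCL12 receptor gene, was that call, at 61.2, 56.8 and 61.0 RPKM in vehicle and 42.2, 41.1 and 39.9 RPKM in pemafibrate, with the groups far apart (log2 difference -0.53 ± 0.04 SE, limma adjusted p = 0.0104). Cxcr5, the follicular homing receptor gene, measured 6.19 ± 0.351 and 4.597 ± 0.141 RPKM (SD, n = 3 each, limma adjusted p = 0.0706, voom 0.0312). Foxp3, the regulatory T cell factor whose promoter E proteins bind, measured 3.994, 4.2 and 3.385 RPKM in vehicle and 6.02, 7.47 and 8.69 RPKM in pemafibrate (limma adjusted p = 0.0573, voom 0.00253). Il7r, the interleukin 7 receptor gene, measured 42.6 and 36.4 RPKM (limma adjusted p = 0.225) and Socs1, a cytokine signal inhibitor gene, 118 and 102 RPKM (0.194). Higher in pemafibrate, beside Foxp3, were Gata3, at 2.01 and 2.73 RPKM (limma adjusted p = 0.309), and Cd4, at 140.3 and 154 RPKM (0.417). The recombination genes Rag1 and Rag2 and the pre-T cell receptor gene Ptcra, E protein targets of thymocytes, averaged at most 0.0513 RPKM in either group.

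**Figure D4:**
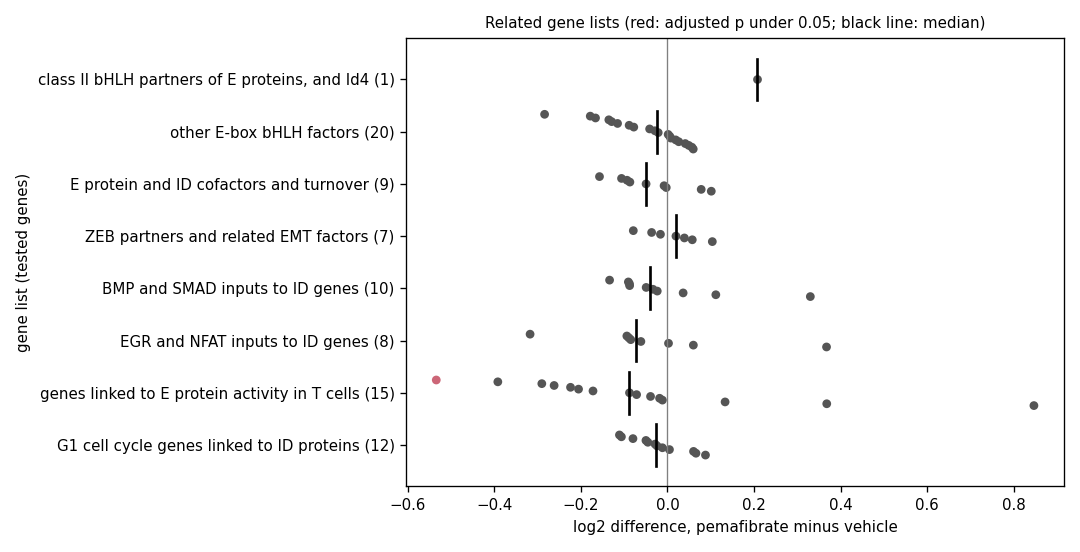
Log2 difference, as pemafibrate minus vehicle, of the tested genes in each of 8 related lists, with the number tested in brackets. Points are genes, red where the limma adjusted p is under 0.05, and black lines are list medians. Cxcr4 at -0.53 is the red point.

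Of 12 tested G1 cell cycle genes, whose inhibitors ID proteins are known to hold down, limma and voom called none (1 at an unadjusted p under 0.05). Cdk6 measured 37.5 and 34.7 RPKM (limma adjusted p = 0.420), Ccnd3 135 and 143 RPKM (0.562) and Cdkn1b, the gene for p27, 50.6 and 46.9 RPKM (0.565). Cdkn1a, the gene for p21 and a known E protein target, measured 69.6 and 69.3 RPKM (0.981).

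**Figure D5:**
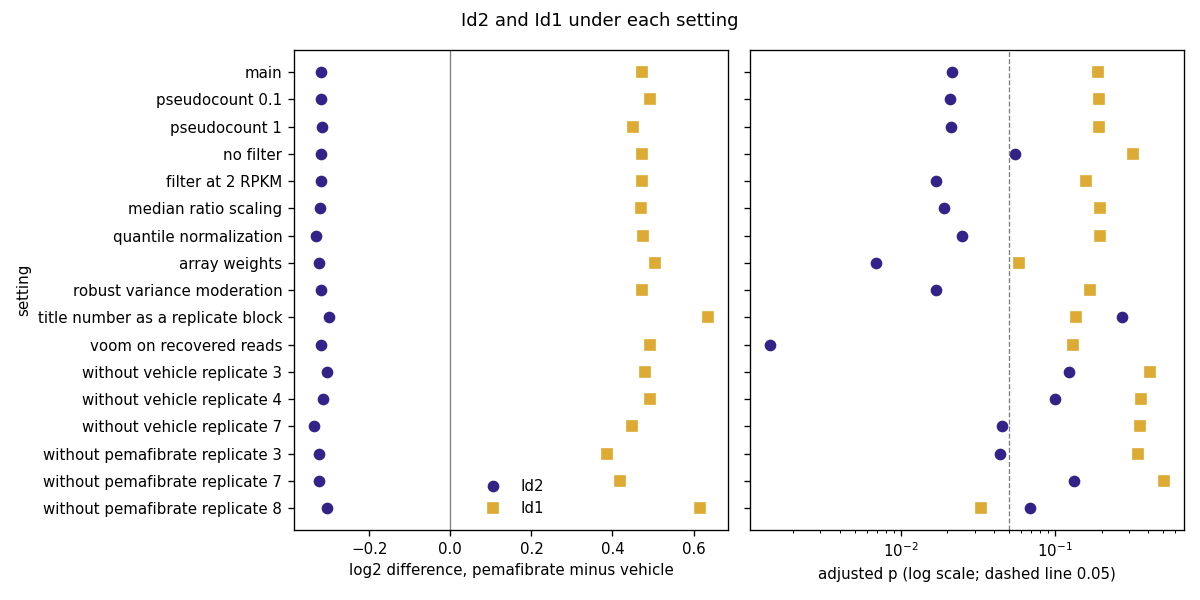
Log2 difference (left) and adjusted p on a log axis (right) of Id2 and Id1 under each setting. Points are 1 fit each, and the dashed line is an adjusted p of 0.05. Id2 stays between -0.34 and -0.30 while its adjusted p runs from 0.00141 to 0.271, and Id1 passes once, at 0.0330 without pemafibrate 8.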

How the data were processed

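The authors deposited 1 table of RPKM values for 6 samples. The submitters' processing notes name HISAT2 2.1.0 and featureCounts 1.4.6, besides Trimmomatic 0.35, bcl2fastq and edgeR, with the builds GRCm38 and mm10; the annotation and strand setting are not given in the sources used here. The same table holds the authors' deposited log2 fold change (its sign read from the RPKM columns), p-value and adjusted p-value, and a rank (an other kind of column), which was not used. Per the labels' protocols, a stranded kit for mRNA was used on 1.0 µg of RNA per library.

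Genes averaging 0.5 RPKM or more entered limma 3.58.1 (R 4.3.3) as log2(RPKM + 0.5) values (two-sided, trended prior variance, Benjamini-Hochberg over all tested genes, threshold 0.05). The scale understates the change of low genes. Log2 differences are pemafibrate minus vehicle. Whole reads were recovered from the ratios of RPKM values within each gene (100% of values above 0, relative tolerance 1e-06) and library sizes from whole gene lengths; voom used genes averaging 10 reads or more. The read numbers by themselves speak to counting error only, while the SE values of voom also include the spread between samples. The fit was checked on simulated data.

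The 8 genes, the 8 related lists and the 9 marker lists were chosen with earlier results of these data known. Named genes are the 8, up to 3 per list with the smallest p, the 5 nearest in profile to Id2, and genes a count or background needs, chosen after their values were seen. Positions, promoters and names are from RefSeq (GRCm38.p6) and transcripts from GENCODE M21. The planned protein comparison was not made. Figures used matplotlib 3.10.9 in Python 3.11.15.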

Additional observations from a re-analysis of the deposited data

How the results depend on the processing

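The direction of Id2 held in all 16 alternatives, and 10 of them kept it under an adjusted p of 0.05. It did not pass with no filter (log2 difference -0.32, adjusted p = 0.0552) or with the title number as a replicate block (-0.30, adjusted p = 0.271). Leaving out 1 sample gave Id2 differences from -0.34 to -0.30. The count of the 8 genes called was 1, and 0 with no filter and with the replicate block. Leaving out 1 sample gave 0 to 1, and not always the same gene. Among these omissions Id2 passed only without vehicle 7 (limma adjusted p = 0.0454) and without pemafibrate 3 (0.044). Without pemafibrate 8 the called gene was Id1, with Id2 at 0.0683. Of all tested genes limma called 40, against 7 with no filter, 140 with array weights, 146 with voom and 0 with the replicate block (653 at an unadjusted p under 0.05). Leaving out 1 sample gave 0 (without pemafibrate 7, 771 at an unadjusted p under 0.05) to 25. The title numbers 3 and 7 are shared by both groups, but nothing says what they mark; deviations of the same-numbered samples from their group means correlated at 0.0304 and -0.0083 across genes, and the block leaves few degrees of freedom. Id3 changed sign with array weights (-0.0039) and without vehicle 7 (-0.0091, against up to 0.23 without vehicle 3), and Id1 passed without pemafibrate 8 (0.62). The ID to E protein ratio differed by -0.289, and by 0.239 with geometric means, where the groups overlapped; leaving out 1 sample gave -0.37 to -0.21. Median ratio scaling and quantile normalization moved the median of all genes by under 0.1 on the log2 scale and changed the direction of none of the 8 genes. Where a call was lost, the cause was not tested. Zeb2 fell below the filter at 2 RPKM and has no value there.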
